A study of Homo sapiens with 2 samples.

Results

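The cells described here are the untreated adipose-derived mesenchymal stem cells that the authors' clustering placed in cluster 1. They were chosen as the cells whose library name was the untreated one and whose deposited cluster number was 1, which gave 3687 of the 8101 untreated cells (45.5%) and of 20656 cells in all. Commercially supplied human cells were brought to 90% confluence in 10 cm plates and starved overnight. One culture received no further treatment and the other received transforming growth factor beta 1 (TGFB1) at 10 ng/mL for 24 hours. The cells of each culture were released with trypsin, frozen and made into 1 droplet library, counted as unique molecular identifiers (UMIs). The study's title concerns progenitor cells and interleukin 11 in the stroma of melanoma. The other untreated cells were 3094 in cluster 2 and 1320 in the remaining clusters, of which cluster 6 held 842, cluster 7 held 274, cluster 9 held 108 and 5 smaller clusters 96 together. The TGFB1 library gave 12555 cells, of which 56 carried the number 1.

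With 1 library per condition no test between conditions was possible, and cells were not used as replicates. The authors made the clusters from these same cells, and no source used here says which genes entered, so a ratio between clusters describes how the authors' clusters differ and is not a test. Levels are UMIs summed over the cells of a group and given as counts per 1e6 UMIs of that group (CPM). Ratios carry exact 95% intervals that cover counting error only. The comparison with cluster 2 and the comparison with the remaining cells share the cluster 1 cells.

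The marker genes given for cluster 1 are FGF13, SNTG1, SOX5, IL1RAPL1, LSAMP and MAGI2, and most of them are best known from neurons. Synaptic adhesion molecules join the membranes of neighbouring cells, and scaffold proteins beneath the membrane hold receptors and channels in place. Many genes of these families are very long, and several are also transcribed outside the nervous system. MALAT1, NEAT1 and other nuclear long non-coding RNAs stay in the nucleus, whereas most spliced messenger RNA is found in the cytoplasm.

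The defining markers of neurons did not follow the working label of a neuronal-type state. RBFOX3, a nuclear splicing factor of mature neurons, stood at 0.0826 CPM in cluster 1. ELAVL4, an RNA-binding protein of neurons, stood at 0.0708 CPM, and DCX, a microtubule protein of migrating neurons, at 0.0236 CPM. The synaptic vesicle protein SYN1 was at 0.236 CPM and the neurofilament gene INA at 0.378 CPM, so that 5 of 12 neuron markers were under 1 CPM. The 6 neuron markers at 5 CPM or more were SYT1 at 226, STMN2 at 79.6, TUBB3 at 37.0, NEFL at 25.9, NEFM at 16.5 and MAP2 at 5.28 CPM. The 12 neuron markers summed to 396 CPM in cluster 1, against 259 in cluster 2, 507 in cluster 6, 127 in cluster 7 and 1000 CPM in cluster 9, so cluster 1 was not the highest. None of the 8 Schwann or neural crest markers reached 5 CPM, and 3 of them had no UMI in cluster 1. The 10 mesenchymal stromal markers summed to 26249 CPM in cluster 1 and 28143 CPM in cluster 2. COL1A2 at 7831, VIM at 7460 and COL1A1 at 6959 CPM made up most of the cluster 1 sum. The stromal marker ENG was low, at 1.32 CPM in cluster 1 and 1.04 CPM in cluster 2. Markers of endothelial, immune and adipocyte cells were near 0 apart from EGFL7 at 11.8 CPM and CD68 at 20.2 CPM. The mural markers PDGFRB and ABCC9 stood at 113 and 99.9 CPM and the keratin KRT19 at 614 CPM, while the smooth muscle myosin MYH11 was at 0.956 CPM and the epithelial marker EPCAM at 0.059 CPM. The cells are therefore named here by their cluster number and leading genes.

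FGF13 encodes a relative of the fibroblast growth factors that stays inside the cell and binds voltage-gated sodium channels. It stood at 87.6 CPM in cluster 1, 19.1 in cluster 2, 38.1 in cluster 6, 2.92 in cluster 7 and 14.7 CPM in cluster 9. SNTG1 encodes a syntrophin, an adaptor of the dystrophin complex, and stood at 39.1, 8.56, 16.2, 2.05 and 4.57 CPM in the same order. Both genes were highest in cluster 1 and next highest in cluster 6. FGF13 was 4.598-fold (4.31 to 4.91) and SNTG1 4.56-fold (4.14 to 5.04) higher in cluster 1 than in cluster 2. Relative to the remaining cells the ratios were 3.23 (3.01 to 3.48) and 3.33 (2.99 to 3.73).

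SOX5 encodes a transcription factor of the SOX family with roles in cartilage and in neurons. It stood at 55.7 CPM in cluster 1, 14.98 in cluster 2, 13.3 in cluster 6, 20.01 in cluster 7 and 32.5 CPM in cluster 9, and was 3.72-fold (3.45 to 4.01) higher than in cluster 2. IL1RAPL1, a synaptic adhesion receptor related to the interleukin 1 receptor accessory protein, stood at 301, 76.1, 141, 81.7 and 53.8 CPM. Its ratio was 3.95 (3.82 to 4.08) against cluster 2 and 2.52 (2.43 to 2.61) against the remaining cells. Of clusters 2, 6, 7 and 9, cluster 9 was thus the nearest to cluster 1 for SOX5 and the farthest for IL1RAPL1.

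LSAMP, an IgLON adhesion protein anchored to the membrane by lipid, stood at 741 CPM in cluster 1, 243 in cluster 2, 290 in cluster 6, 151 in cluster 7 and 279 CPM in cluster 9. MAGI2, a scaffold protein of synapses and cell junctions, stood at 695, 205, 301, 216 and 554 CPM. Against cluster 2 LSAMP was 3.05-fold (2.99 to 3.11) and MAGI2 3.39-fold (3.32 to 3.46) higher. For MAGI2 cluster 9 came close to cluster 1, and the other clusters did not.

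**Figure D1:**
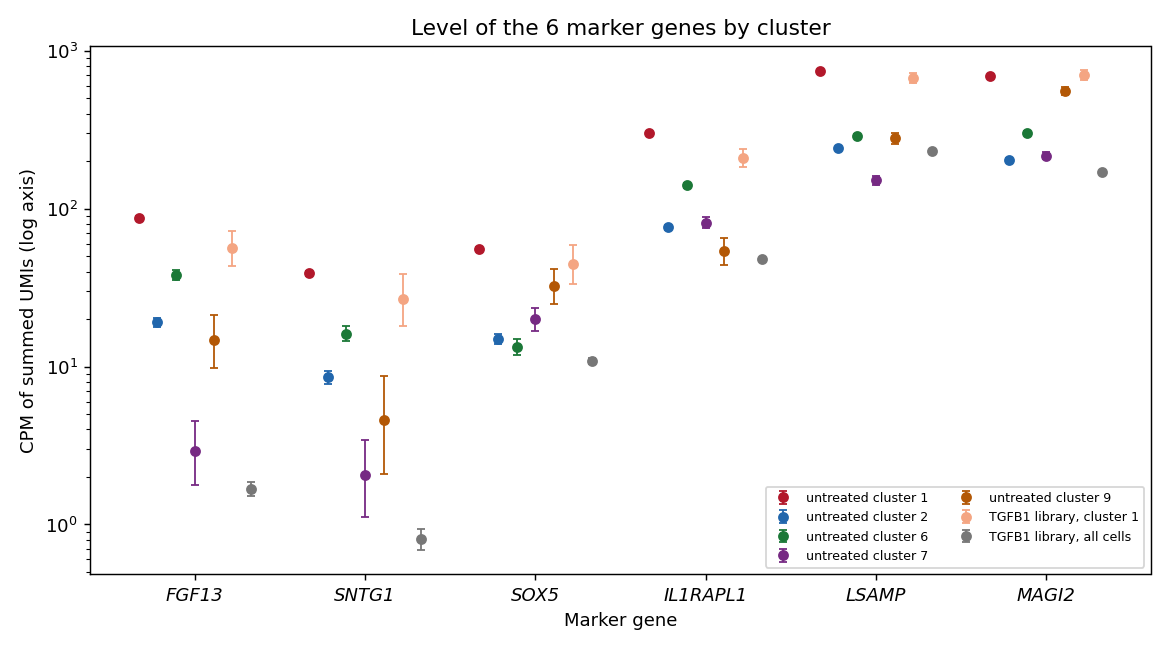
Level of the 6 marker genes in CPM of summed UMIs, on a log axis, in untreated clusters 1, 2, 6, 7 and 9, in the cluster 1 cells of the TGFB1 library and in that whole library. Points are group sums and bars exact 95% Poisson intervals for counting error; each untreated cluster 1 value lies above the other untreated clusters, with FGF13 at 87.6 CPM and LSAMP at 741 CPM.

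Detection per cell was compared after thinning every cell to 7500 UMIs, which left out 113 cells of cluster 1, 239 of cluster 2 and 103 of the remaining clusters. A UMI of FGF13 was then found in 30.9% of cluster 1 cells and 11.0% of cluster 2 cells, and in 46.4% and 19.3% before thinning. For SNTG1 the thinned shares were 13.8% and 4.52%, for SOX5 25.9% and 8.51%, and for IL1RAPL1 69.9% and 32.4%. LSAMP was detected in 93.4% against 67.5% and MAGI2 in 94.9% against 60.3% of thinned cells. No cell type that should lack these genes was present among these stromal cells to set the level of free RNA. In cluster 7, whose cells had a median of 23212.5 UMIs against 21470 in cluster 1, the thinned shares were 1.17% for FGF13 and for SNTG1. In the TGFB1 library they were lower still, 0.943% for FGF13 and 0.429% for SNTG1.

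The number of the 6 markers with a UMI was also counted in single cells. No number expected from the separate detection shares was computed, so whether the markers occur together beyond those shares was not tested. A cluster 1 cell thinned to equal depth had a UMI of a median of 3 of the 6 genes, and a cluster 2 cell of 2. At least 4 of the 6 were found in 40.6% of cluster 1 cells, 7.15% of cluster 2, 10.8% of cluster 6, 6.23% of cluster 7 and 5.88% of cluster 9 cells. Before thinning these shares were 66.9%, 21.2%, 29.1%, 13.1% and 15.7%. Cells with none or 1 of the markers made up 2.66% of cluster 1 and 39.4% of cluster 2. The groups overlapped, since 39.2% of cluster 1 cells and 22.6% of cluster 2 cells had exactly 3.

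**Figure D2:**
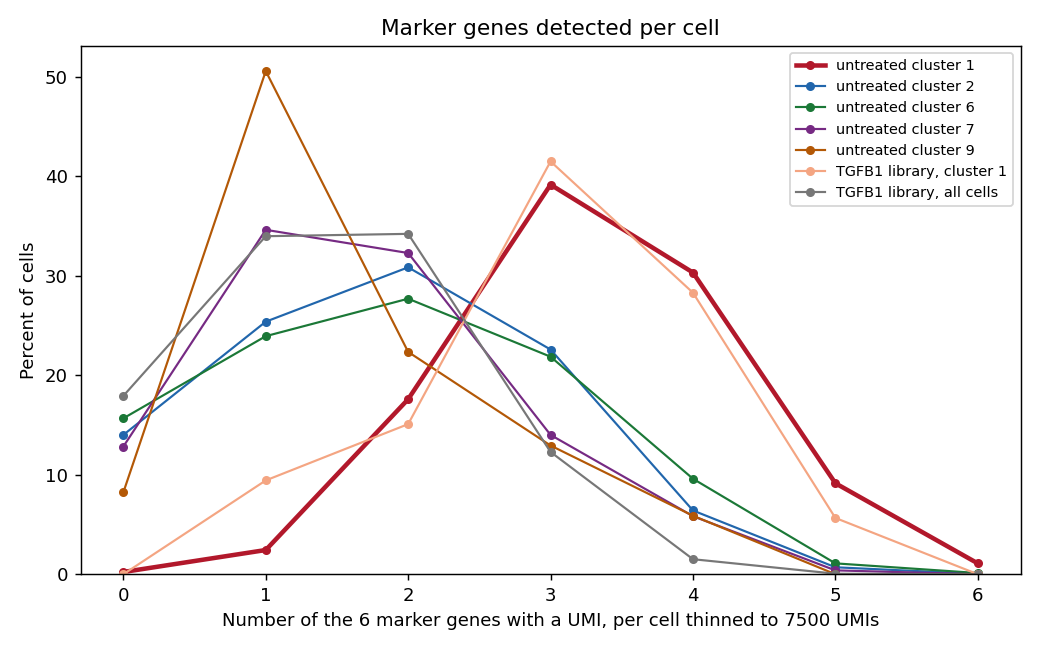
Percent of cells, each thinned to 7500 UMIs, that carry a UMI of 0 to 6 of the marker genes, by cluster. The line of untreated cluster 1 peaks at 3 markers with 39.2% of cells, and the line of the cluster 1 cells of the TGFB1 library, 53 of 56 after thinning, runs near it.

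The sequence before a start annotated in RefSeq was available for 5 of the 6 markers, in 6 windows of 250 bases on GRCh38.p14. The LSAMP window and both FGF13 windows lie inside the gene spans given below. They are thus not the sequence before the outer end of those spans. Windows that hold a match are shown because these genes were high together, with capitals on matches to 3 short motifs searched on both strands. The motifs were the SOX core AACAAT (or ATTGTT), the GC box GGGCGG (or CCGCCC) and the TATA box TATAAA (or TTTATA).
FGF13, chrX:139205024-139205273, minus strand: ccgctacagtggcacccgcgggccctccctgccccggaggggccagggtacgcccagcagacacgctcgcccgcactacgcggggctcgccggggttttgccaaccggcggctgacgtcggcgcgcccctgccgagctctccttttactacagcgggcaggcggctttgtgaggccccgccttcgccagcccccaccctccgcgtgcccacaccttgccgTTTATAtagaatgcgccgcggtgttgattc
FGF13, second start, chrX:138739354-138739603, minus strand: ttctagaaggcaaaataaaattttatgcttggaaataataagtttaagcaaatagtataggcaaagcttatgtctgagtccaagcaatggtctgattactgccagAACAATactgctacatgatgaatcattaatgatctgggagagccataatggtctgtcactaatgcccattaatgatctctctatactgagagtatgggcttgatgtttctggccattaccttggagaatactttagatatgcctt
SOX5, chr12:24562492-24562741, minus strand: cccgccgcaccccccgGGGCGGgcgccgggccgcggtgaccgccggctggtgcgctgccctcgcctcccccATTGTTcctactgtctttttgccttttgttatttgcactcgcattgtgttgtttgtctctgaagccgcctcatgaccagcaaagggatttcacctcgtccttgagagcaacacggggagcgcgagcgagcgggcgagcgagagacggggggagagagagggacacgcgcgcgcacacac
LSAMP, chr3:116445488-116445737, minus strand: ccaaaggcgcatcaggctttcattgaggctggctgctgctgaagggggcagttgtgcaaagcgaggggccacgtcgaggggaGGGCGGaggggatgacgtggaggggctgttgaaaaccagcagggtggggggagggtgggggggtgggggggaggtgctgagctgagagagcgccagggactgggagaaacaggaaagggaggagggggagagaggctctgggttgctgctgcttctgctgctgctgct
The SOX motif was in 2 of the 6 marker windows, the GC box in 2 and the TATA motif in 1. Among all 35116 windows of the same length the shares were 8.98%, 42.6% and 10.7%. The windows of IL1RAPL1 and MAGI2 held none of these letters, so the 6 windows shared no match to any of these motifs. A match is a description of the letters only.

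Cluster 1 differed from cluster 2 mainly by higher transcripts of long genes. Of 6733 genes at 20 CPM or more in either cluster, 981 (14.6%) were at least 2-fold higher in cluster 1, and 0 (0.00%) were at least 2-fold lower. At 1.5-fold the counts were 2088 (31.0%) higher and 57 (0.847%) lower. Over the measured genes the median log2 ratio was 0.19. It became -0.31 with TMM factors, which trim extreme genes, and -0.36 with median-of-ratios factors. The split then was 285 higher and 99 lower, or 236 higher and 218 lower, so the absence of 2-fold lower genes did not hold with these factors.

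Of the 15 genes with the highest ratio against cluster 2, only 3 were annotated as protein-coding. The others were annotated as another type or, like TALAM1, had no annotated type. Of the 15, 11 spanned 100 kb or more, and 7 carry no name beyond an Ensembl identifier. TALAM1, transcribed antisense to MALAT1, stood at 516 CPM in cluster 1 and 61.6 CPM in cluster 2, which is 8.37-fold (8.08 to 8.67) higher. TALAM1 and MALAT1 were counted as separate genes, but the sources used here do not say whether the counting used strand. Whether reads of one were counted as the other was not tested. LINC01239 was 5.62-fold higher (93.5 against 16.7 CPM), EHBP1-AS1 4.74-fold (22.0 against 4.63), SLC7A14-AS1 4.201-fold and LMCD1-AS1 4.18-fold. ABCA9, a transporter of the ATP-binding cassette family, stood at 33.0 CPM against 6.51 CPM, 5.06-fold higher, and was the third coding gene beside FGF13 and SNTG1. It was not particular to cluster 1, since cluster 9 stood at 150 CPM.

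The 15 genes with the lowest ratio were all protein-coding, none spanned 100 kb, and their median span was 4477 bases. ACTB, cytoplasmic beta-actin, stood at 4022 CPM in cluster 1 and 6465 CPM in cluster 2, 1.61-fold lower. The smooth muscle actin ACTA2 was 1.61-fold lower (144 against 232 CPM), the calponin-related TAGLN 1.59-fold (4137 against 6560 CPM) and the regulatory light chain MYL9 1.69-fold (749 against 1268 CPM). The actin-binding PFN1 was 1.62-fold lower, the glycolytic enzyme GAPDH 1.66-fold (1509 against 2511 CPM) and the metalloproteinase inhibitor TIMP1 1.60-fold (3553 against 5681 CPM). In CPM the difference was therefore uneven, with ratios of 4 or more at the high end and under 1.7 at the low end. This unevenness depended on the scaling, since median-of-ratios factors gave 236 genes 2-fold higher and 218 lower.

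Gene lists were counted over members at 5 CPM or more in either group, with 1.5-fold as the limit. By that rule 3583 of 10909 genes (32.8%) were higher and 77 (0.706%) lower in cluster 1 than in cluster 2, with a median log2 ratio of 0.27. Synaptic adhesion genes were higher for 9 of 10 measured members and lower for none, with a median of 1.48. All 13 measured synaptic scaffold and syntrophin genes were higher, also with a median of 1.48. Among ion channels and receptors known from neurons 10 of 10 were higher, with a median of 1.51. Axon guidance genes were higher for 11 of 13, with a median of 1.06. These 4 lists held almost only genes of 100 kb or more, 45 of 46 measured members. By the same rule 74.3% of all genes of 100 to 300 kb were higher, with a median of 0.86. For all genes of 300 kb or more the share was 93.8% and the median 1.36.

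The members named from these lists were chosen for the largest absolute log2 ratios against cluster 2, so their high and like ratios follow from that choice. GRIK2, a kainate-type glutamate receptor subunit, stood at 121 CPM against 33.3 CPM (3.65-fold). The sodium-activated potassium channel KCNT2 stood at 63.1 against 19.0 CPM (3.33-fold), the calcium channel subunit CACNA1C at 331 against 107 CPM (3.11-fold) and the potassium channel KCNQ5 at 262 against 86.5 CPM (3.03-fold). The scaffold DLG2 was 3.93-fold higher (58.9 against 14.98 CPM), and RIMS2, a regulator of vesicle release, 3.74-fold (115 against 30.8 CPM). TENM4, a teneurin adhesion protein, was 3.65-fold higher, NCAM2 2.90-fold and the dystrobrevin DTNA 3.43-fold. Of the guidance genes EFNA5 was 3.45-fold, SEMA3D 2.86-fold and SLIT2 2.84-fold higher (294 against 103 CPM). All of these genes were also measured in cluster 2.

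Other lists with a high median against cluster 2 held regulators and nuclear RNAs. Nuclear-retained long non-coding RNAs were higher for 11 of 12, with a median of 1.57. KCNQ1OT1 was 3.47-fold, FTX 3.44-fold, LINC-PINT 3.27-fold and MIR99AHG 3.09-fold higher. MALAT1 itself stood at 24102 CPM against 9917 CPM. Developmental transcription factors were higher for 17 of 23, with a median of 1.01, among them ZFPM2 (597 against 198 CPM, 3.02-fold), BNC2 (588 against 205 CPM, 2.87-fold) and EBF1 (99.6 against 34.5 CPM, 2.89-fold). The doublecortin-like kinase DCLK1 was 3.52-fold higher (77.2 against 21.9 CPM), while its list had 4 of 12 members higher and TUBB2A lower. That list's median of 0.39 turned to -0.17 with TMM factors.

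All 6 marker genes are very long. In GENCODE release 29 on GRCh38 FGF13 spans 608 kb of chromosome X (138614731 to 139222777, minus strand), and IL1RAPL1 spans 1369 kb of the same chromosome (28587399 to 29956723, plus strand). SNTG1 spans 887 kb of chromosome 8 (49909789 to 50796691, plus strand) and SOX5 1033 kb of chromosome 12 (23529500 to 24562544, minus strand). LSAMP spans 1337 kb of chromosome 3 (115802363 to 117139389, minus strand) and MAGI2 1437 kb of chromosome 7 (78017057 to 79453574, minus strand). The counts do not show which start site was used. The sources used here do not name the annotation behind the counts, or say whether reads in introns were counted.

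The ratio followed the annotated span of the gene across all measured genes. Against cluster 2 the median log2 ratio was -0.37 over 1107 genes under 10 kb, -0.18 over 1481 genes of 10 to 30 kb and 0.30 over 2220 genes of 30 to 100 kb. It was 0.82 over 1486 genes of 100 to 300 kb and 1.32 over 410 genes of 300 kb or more. A ratio of 2-fold or more was found for 0.632% of genes under 10 kb and for 82.2% of genes of 300 kb or more. The same 5 medians against the remaining cells were -0.18, -0.16, -0.01, 0.15 and 0.35. The order by span was thus the same in both comparisons, and the range was smaller in the second. It did not hold against each cluster. Against cluster 9 the 5 medians ran the other way, at 0.18, 0.07, -0.07, -0.15 and -0.16, while against cluster 7 they ran from 0.02 to 0.43 and against cluster 6 from -0.24 to 0.41.

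**Figure D3:**
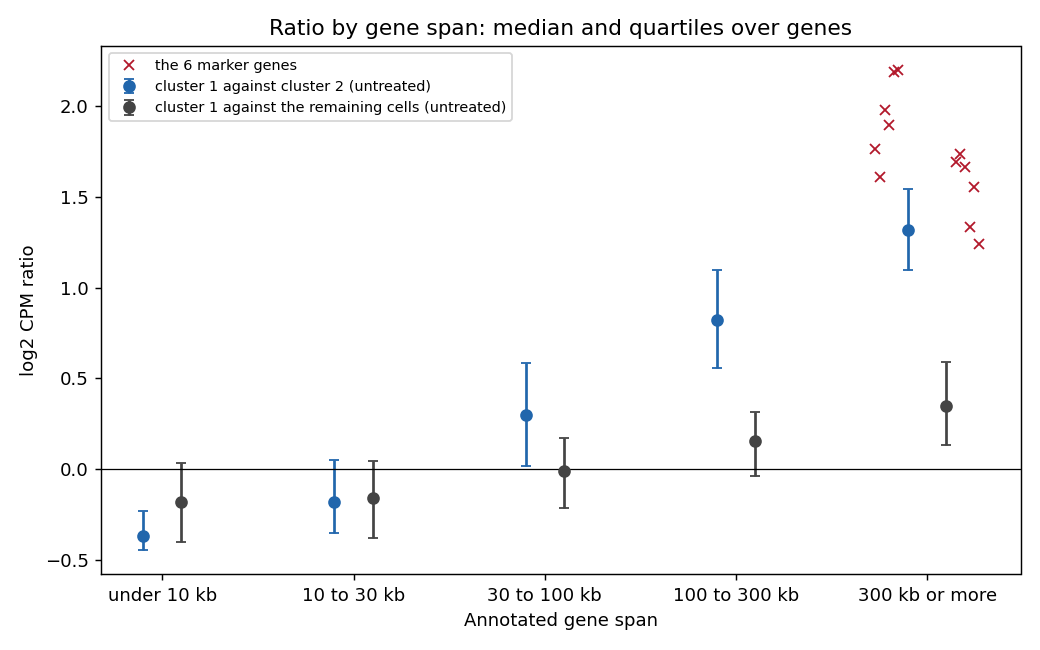
Log2 CPM ratio of untreated cluster 1 over cluster 2 and over the remaining untreated cells, by annotated gene span; points are medians over genes, bars the lower and upper quartiles, and crosses the 6 marker genes. The medians climb from -0.37 to 1.32 against cluster 2 and from -0.18 to 0.35 against the remaining cells, and the crosses lie above the medians of the longest genes.

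Set against other genes of their own span, the markers stood out more from the remaining cells than from cluster 2. Among 410 genes of 300 kb or more FGF13 ranked 2 and SNTG1 ranked 3 by their ratio against cluster 2, while IL1RAPL1 ranked 13, SOX5 17, MAGI2 36 and LSAMP 78. Among 427 such genes against the remaining cells the ranks were 4 for FGF13, 3 for SNTG1, 5 for SOX5, 6 for LSAMP, 10 for IL1RAPL1 and 14 for MAGI2. The median of the 6 markers lay 0.58 log2 units above genes of the same span class against cluster 2 and 1.28 above them against the remaining cells. Measured in this way the other neuronal-type lists lay near genes of like span. Against cluster 2 the list medians were 0.18 for synaptic adhesion, 0.30 for scaffolds, 0.15 for channels and -0.15 for axon guidance. The nuclear non-coding RNAs kept 0.70.

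Measures of whole cells moved with the cluster number. In the median cell MALAT1 took 2.33% of UMIs in cluster 1, 0.760% in cluster 2, 0.975% in cluster 6, 2.996% in cluster 7 and 4.46% in cluster 9. Genes of 100 kb or more took 19.8%, 11.9%, 16.6%, 17.8% and 23.3%. Ribosomal protein genes took 13.7% in cluster 1 and 17.1% in cluster 2, and mitochondrial genes 2.83% and 2.48%. Cluster 1 thus lay between cluster 2 and clusters 7 and 9 in MALAT1. Cells of cluster 1 had a median of 21470 UMIs and 5380 genes and cells of cluster 2 of 16327 UMIs and 4143 genes, and at equal depth 2974 and 2646 genes. The share of MALAT1 was above the cluster 2 median in 99.2% of cluster 1 cells, and 9.02% of cluster 2 cells lay above the cluster 1 median. For genes of 100 kb or more these shares were 99.9% and 2.04%.

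**Figure D4:**
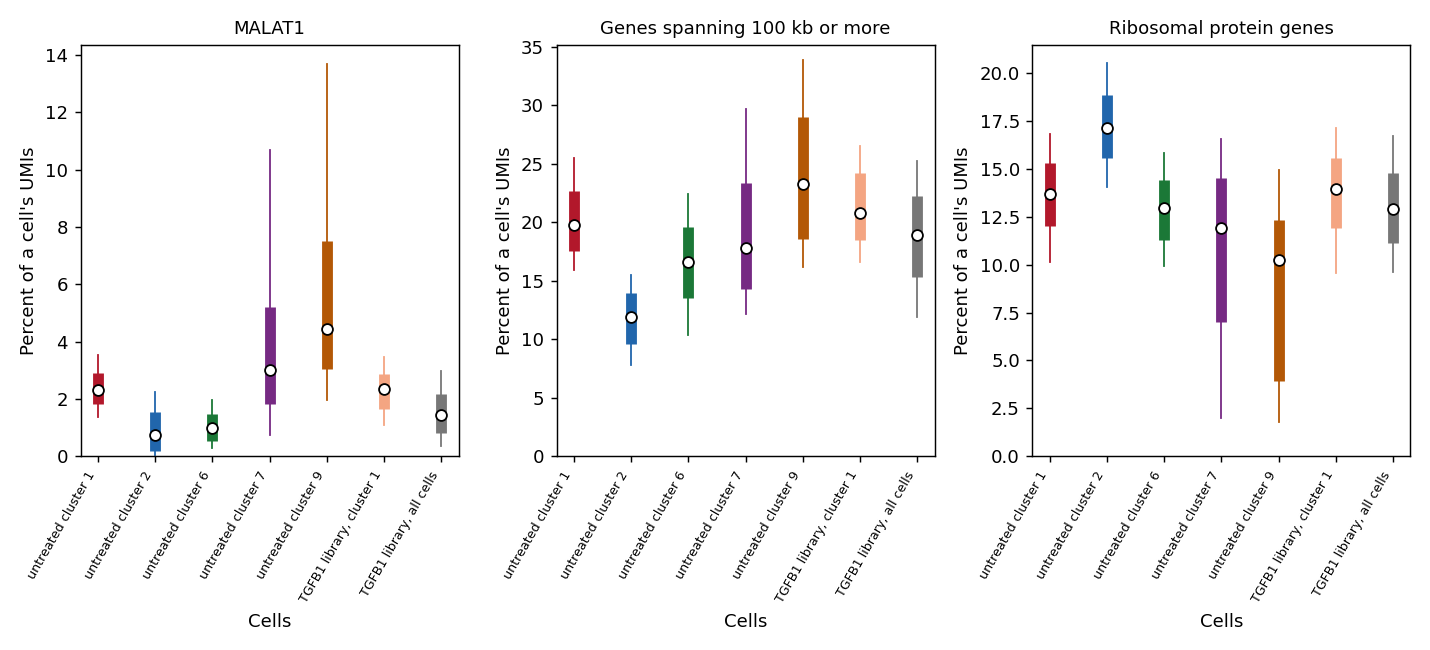
Percent of a cell's UMIs from MALAT1, from genes of 100 kb or more and from ribosomal protein genes, by cluster and library; circles are medians over cells, thick bars quartiles and thin lines the range from percentile 10 to percentile 90. Cluster 1 has a median of 2.33% for MALAT1 against 0.760% in cluster 2, with clusters 7 and 9 above it.

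The comparison was repeated among cells with a MALAT1 share of 1 to 2%, which kept 1137 cells of cluster 1, 840 of cluster 2 and 407 of the remaining cells. This band was chosen after the data were seen. In it 211 genes were 2-fold higher than in cluster 2 and 2 were lower, ACTA2 (111 against 246 CPM) and CNN1 (63.9 against 131 CPM), which both encode smooth muscle contractile proteins. FGF13 was 3.88-fold, SNTG1 3.26-fold, IL1RAPL1 2.68-fold, LSAMP 2.18-fold, MAGI2 1.99-fold and SOX5 1.62-fold higher. Genes of 300 kb or more had a median log2 ratio of 0.84 and genes under 10 kb of -0.18. In log2 units SOX5 stood at 0.69, below that median of the longest genes. The other markers lay above it, with MAGI2 nearest at 0.99. The markers were thus higher in cluster 1 at a like MALAT1 share, with SOX5 reduced most. Over 5 bands from 0.5% upwards the ratio ranged from 3.002 to 5.74 for FGF13 and from 1.37 to 2.59 for SOX5.

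Against the remaining untreated cells cluster 1 differed in fewer genes. Of 7098 genes at 20 CPM or more, 71 (1.00%) were 2-fold higher and 291 (4.10%) lower, with a median log2 ratio of -0.01. Several genes high against the remaining cells were not known chiefly from neurons. SLC39A8, a transporter of zinc and manganese, was 3.72-fold (3.41 to 4.05) higher, at 71.5 against 19.3 CPM. LINC00578 was 3.37-fold higher (253 against 75.2 CPM). RSPO3, a secreted enhancer of Wnt signalling, was 2.60-fold higher (106 against 41.0 CPM), and the formin FMN1 2.59-fold (111 against 42.7 CPM). Of the 15 highest genes 12 spanned 100 kb or more, and 5 have only an Ensembl identifier.

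The lowest ratios against the remaining cells were mostly those of mitotic genes, and 13 of the 15 lowest genes were highest in cluster 6. The mitotic kinesin KIF14 stood at 0.271 CPM in cluster 1 and 73.3 CPM in cluster 6, with no UMI in clusters 7 and 9, and was 180-fold lower than in the remaining cells together. The proliferation marker MKI67 stood at 1.78 CPM against 225 CPM in cluster 6. All 24 G2 and M phase genes and all 20 S phase genes were lower, with medians of -5.06 and -2.90. Without cluster 6 these medians turned to 0.34 and 0.09. Then 178 of 6848 genes (2.60%) were 2-fold higher and 195 (2.85%) lower. The other two were not mitotic genes. MGP, an inhibitor of calcification, stood at 1.16 CPM in cluster 1, 141 CPM in cluster 9 and 2347 CPM in the 96 cells of the 5 smaller clusters together. LINC03000 stood at 0.236 CPM in cluster 1, 265 CPM in cluster 9 and 60.7 CPM in the smaller clusters.

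Neuronal-type lists were mixed against the remaining cells. By the rule for lists 639 of 11292 genes (5.66%) were higher than in the remaining cells and 1064 (9.42%) lower, and the median was -0.01. Synaptic adhesion genes were higher for 5 of 12 and lower for 3 (NTM, NRXN3 and NCAM1), with a median of 0.43. Scaffold genes were higher for 4 of 15 and lower for DMD, with a median of 0.38. Channels and receptors were higher for 4 of 11 and lower for KCNQ5 and KCND2, with a median of 0.54. Those lower genes other than KCNQ5 were named after their values were seen. KCNQ5 stood at 642 CPM in cluster 6, and its ratio of 0.553 reversed without that cluster. Axon guidance genes were higher for 4 of 13, with a median of 0.45, which became -0.00 without cluster 6. DLG2 was 1.67-fold higher than in the remaining cells, but cluster 9 stood at 114 CPM and cluster 1 at 58.9 CPM.

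Few genes were high against each other cluster. Of 6549 genes at 20 CPM or more in cluster 1, 8 (0.122%) were at least 2-fold higher in cluster 1 than in each of clusters 2, 6, 7 and 9. Among them were LSAMP, with a smallest ratio of 2.55, SNTG1 (2.41), LINC00578 (2.31), FGF13 (2.30), IL1RAPL1 (2.13) and 2 genes with only an Ensembl identifier. Of these 8 genes 6 spanned 300 kb or more. SOX5 and MAGI2 were not among them. At 1.5-fold 37 genes were higher than in each of these clusters. For lower genes the minimum of 20 CPM was set in each of the 4 other clusters, which 5181 genes reached, and 0 of them were 1.5-fold lower in cluster 1 than in each.

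Genes of the TGFB pathway were counted in 2 lists by role, and the difference between the lists was not tested. Ligands, receptors and SMADs were higher than in cluster 2 for 9 of 17 and lower for none, with a median of 0.61. The accessory receptor TGFBR3 was 2.39-fold (86.0 against 36.0 CPM), the type II receptor ACVR2A 2.17-fold, the type I receptor BMPR1A 2.16-fold and the signal transducer SMAD3 2.205-fold higher. Compared with the remaining cells none of 18 was higher and 2 were lower, TGFB3 and INHBA, which were named after their values were seen. SMAD-responsive genes had a median of -0.03 against cluster 2, with 2 of 16 higher and TAGLN lower. The members higher were NOX4, an oxidase that makes hydrogen peroxide (21.4 against 9.86 CPM, 2.17-fold), and TSC22D1 (182 against 89.4 CPM, 2.04-fold). Against the remaining cells the list had 5 of 17 members lower, none higher and a median of -0.32. Set against genes of like span, the cluster 2 medians of the lists were 0.03 for ligands, receptors and SMADs and -0.05 for SMAD-responsive genes, so that they lay close together.

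Contractile and actin genes were lower than in cluster 2 for 5 of 23 (ACTA2, ACTB, TAGLN, MYL9 and MYL6) and higher for 2, with a median of -0.20. The members higher were the long adhesion genes VCL (1.62-fold) and TNS1 (1.95-fold). Collagens were higher for 1 of 18, COL14A1 at 10.7 against 4.09 CPM, with a median of 0.20 that turned to -0.24 with TMM factors. S100 proteins and annexins had a median of -0.43 with 0 of 13 past 1.5-fold in either direction, among them S100A10 at 1.46-fold lower. Nuclear-encoded genes of oxidative phosphorylation had a median of -0.41, with 0 of 32 past 1.5-fold, while the mitochondrially encoded genes had a median of 0.19 that turned to -0.25 with TMM factors.

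Growth factors were higher than in cluster 2 for 8 of 20 and lower for 1, IGFBP6, with a median of 0.47. PDGFD, a platelet-derived growth factor, stood at 31.2 against 10.3 CPM (3.03-fold) and was 2.08-fold higher than in the remaining cells. NRG1, a ligand of ERBB receptors, was 2.35-fold higher than in cluster 2 (43.6 against 18.6 CPM) and 1.64-fold lower than in the remaining cells, where cluster 6 stood at 89.3 CPM. Wnt pathway genes were higher for 8 of 18 and lower for none, with a median of 0.47 against cluster 2 and 0.44 against the remaining cells. The receptors ROR2 (23.4 against 7.54 CPM, 3.10-fold) and ROR1 (307 against 126 CPM, 2.43-fold) led that list. With median-of-ratios factors the cluster 2 medians of both lists became -0.02 and -0.03.

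**Figure D5:**
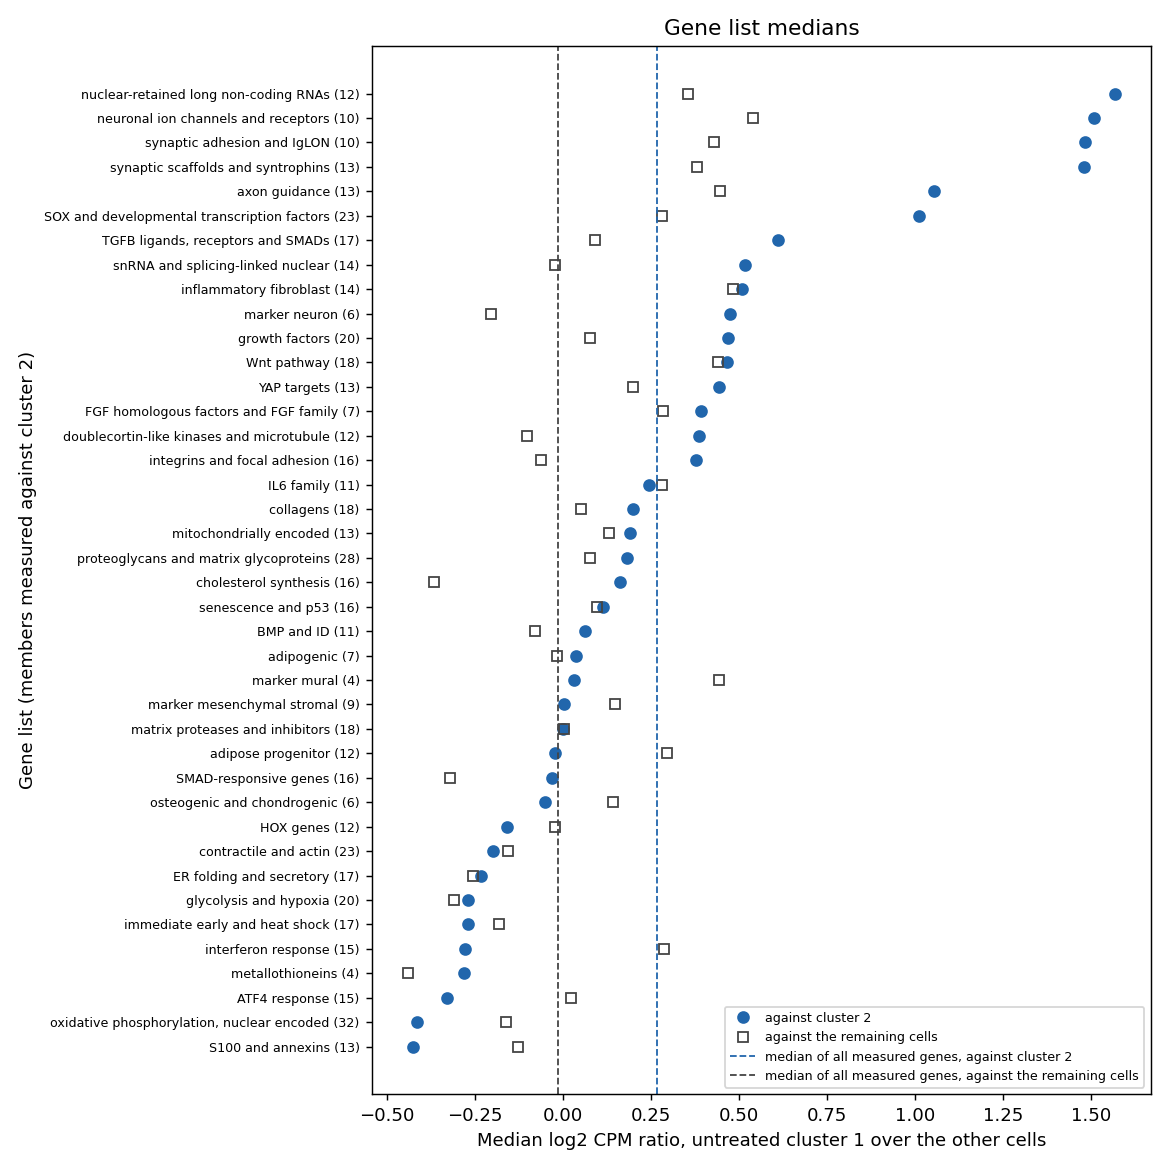
Median log2 CPM ratio of 40 gene lists with at least 4 measured members, leaving out the 6 markers and the lists of S phase and of G2 and M phase, for untreated cluster 1 over cluster 2 (circles) and over the remaining untreated cells (squares); dashed lines mark the medians of all measured genes. Nuclear non-coding RNAs at 1.57 and the 3 lists of channels, adhesion and scaffold genes at 1.48 to 1.51 lie farthest right against cluster 2, with squares at 0.36 to 0.54. For some lists, such as SMAD-responsive genes at -0.03 and -0.32, the square lies farther from 0 than the circle.

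Cluster 1 was not uniform in depth or in the markers. Its cells were divided into 4 groups of equal size by their number of UMIs. From the fewest UMIs to the most FGF13 stood at 117, 97.8, 79.9 and 78.0 CPM and SNTG1 at 76.4, 45.1, 31.1 and 29.1 CPM. In the same order MAGI2 stood at 689, 685, 708 and 692 CPM and SOX5 at 52.8, 49.9, 56.1 and 59.3 CPM. FGF13 and SNTG1 thus took a larger share in cells with few UMIs, and MAGI2 and SOX5 did not. In cluster 2 FGF13 went from 23.3 to 14.2 CPM and SNTG1 from 16.8 to 5.21 CPM over its own 4 groups, so for both genes every cluster 1 group was above every cluster 2 group. By MALAT1 share, from 0.5 to 1% up to 3% or more, SOX5 went from 25.3 to 74.5 CPM, MAGI2 from 501 to 806 CPM and FGF13 from 140 to 77.8 CPM within cluster 1.

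The TGFB1 library placed 56 of its 12555 cells (0.446%) in cluster 1, so 98.5% of the 3743 cells with that number were untreated. The 2 libraries shared 18 cell barcodes, 6 of them in untreated cluster 1 and 0 among the 56 cells. In these 56 cells FGF13 stood at 56.4 CPM, SNTG1 at 26.9, SOX5 at 44.8, IL1RAPL1 at 209, LSAMP at 672 and MAGI2 at 705 CPM. In the whole TGFB1 library the same genes stood at 1.67, 0.804, 10.8, 47.9, 232 and 170 CPM. The ratios of the 56 cells to untreated cluster 1 were, in the same order, 0.644, 0.688, 0.804, 0.697, 0.908 and 1.02. The intervals of SOX5 (0.596 to 1.06) and MAGI2 (0.945 to 1.09) included 1. At least 4 of the 6 markers were found in 34.0% of the thinned cells of the 56 and in 1.56% of the TGFB1 library. The number 1 came from the authors' clustering, so high markers in the 56 cells describe that grouping and are not a test. ACTA2 stood at 237 CPM in the 56 cells, 144 in untreated cluster 1 and 1270 CPM in the TGFB1 library. IL11, the cytokine in the study's title, stood at 26.0 CPM from 29 UMIs, against 2.80 and 143 CPM, which is 9.28-fold (6.08 to 13.7) above untreated cluster 1. An IL11 UMI was found in 23.2% of the 56 cells, 5.40% of untreated cluster 1 cells and 64.0% of the TGFB1 library. Whether free RNA or doublets added to the IL11 count of the 56 cells was not tested.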

How the data were processed

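Single-cell UMI counts were analysed from 1 untreated and 1 TGFB1 library. Per the submitters' processing notes Cell Ranger 9.0.1, Seurat and GRCh38 were used, without stated roles. No source used here names the annotation. The authors deposited raw UMI counts per gene and cell (38606 genes), whose cell sums equalled the deposited UMI totals. Their cell table gives the cluster number at resolution 0.4 and, per the file headers, the percent of mitochondrial UMIs. Its deposited embedding scores were not used. Untreated cells had at least 505 genes and at most 5.00% mitochondrial UMIs. No doublet caller was run, and any doublets were kept.

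UMIs were summed per cluster and divided by the total to give CPM. A count of 0 allows 3 UMIs, or 0.0354 CPM in cluster 1, 0.0558 in cluster 2 and 0.0982 in the remaining cells. Ratios carry exact conditional binomial intervals, sums exact Poisson and shares exact binomial intervals, all at 95% and for counting error only. No p-value was computed.

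Genes counted from 20 CPM in either group and 2-fold, list members from 5 CPM and 1.5-fold. Named genes were the 15 highest and 15 lowest ratios of each comparison, the 6 markers, and up to 4 measured members of each of 49 lists with the largest absolute log2 ratio against cluster 2. Genes with only an Ensembl identifier were counted and not named, and genes that reveal donor sex were left out. Some genes that the rule names are left out of the text. Other members of a list that passed its limit were named after their values were seen. Members and lists were chosen with earlier results of these data known. Spans came from GENCODE release 29, which may differ from the annotation behind the counts, and were found for 34671 names. Classes of span (20 of equal size), the MALAT1 band and the choice of short genes were added after the data were seen.

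Software was R 4.3.3 with edgeR 4.0.16, used only for TMM factors (1.10, 0.810 and 1.12 for cluster 1, cluster 2 and the remaining cells), and pandas 2.3.3, scipy 1.17.1, numpy 2.4.6 and matplotlib 3.10.9 under Python 3.11.15. The calculation of intervals and thinning was tested on simulated data. Alternatives were TMM and median-of-ratios factors, equal weight per cell, thinning, a minimum of 5 or 50 CPM, removal of cells that held a UMI of MKI67 or TOP2A, a filter of 1000 genes and 10000 to 40000 UMIs, and leaving out cluster 6.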

Additional observations from a re-analysis of the deposited data

How the results depend on the processing

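No paired analysis was possible because each condition has 1 library, with 1 replicate number. Values below give, in order, genes 2-fold higher and lower than in cluster 2, and the median log2 ratio of genes under 10 kb and of 300 kb or more, which were 981, 0, -0.37 and 1.32. TMM scaling gave 285, 99, -0.81 and 0.87, and median-of-ratios scaling 236, 218, -0.85 and 0.82. A minimum of 5 CPM gave 1744, 2, -0.31 and 1.36, and 50 CPM gave 539, 0, -0.40 and 1.29. The MALAT1 band of 1 to 2% gave 211, 2, -0.18 and 0.84. The 2 medians were -0.37 and 1.28 with equal weight per cell and -0.37 and 1.37 after thinning. The longest genes had 1.32 without cells with an MKI67 or TOP2A UMI, and the shortest -0.36 under the filter on genes and UMIs. Against the remaining cells the values were 71, 291, -0.18 and 0.35. A minimum of 5 CPM gave 150, 512, -0.16 and 0.33, and 50 CPM gave 39, 140, -0.17 and 0.38. Without cluster 6 the count higher was 178 and the medians 0.026 and 0.28. Without cells with an MKI67 or TOP2A UMI the count lower was 140 and the medians -0.064 and 0.28. The 2 medians were -0.16 and 0.37 under TMM scaling, -0.17 and 0.36 under median-of-ratios scaling, -0.19 and 0.35 after thinning, -0.21 and 0.39 under the filter on genes and UMIs, and -0.11 and 0.25 in the MALAT1 band. With equal weight per cell the longest genes had 0.36. Of 5383 values for single genes and lists, 513 of them main ones, 30 changed sign where the main difference was at least 1.5-fold, 3707 otherwise took another value and 1133 stayed the same to about 2 decimals. Against the remaining cells without cluster 6 the reversed log2 ratios were those of the G2 and M phase list (0.34), the S phase list (0.095), CENPE (0.67), CENPF (0.51), CKS2 (0.34), DLG2 (-0.18), FGF14 (-0.49), FGF5 (1.65), ITGA8 (-0.015), ITGB8 (-0.095), KCNQ5 (0.90), KIF14 (0.47), KIFC1 (0.20), MCM4 (0.37), MKI67 (1.60), MT2A (0.71), NEK2 (1.65), NRG1 (0.28), PLXDC2 (-0.46), PTTG1 (0.37), S100A16 (0.10), SLBP (0.095), TOP2A (0.61) and TUBB3 (0.79). Without cells with an MKI67 or TOP2A UMI CENPE (0.30), FGF14 (-0.17), FGF5 (0.20) and PLXDC2 (-0.25) reversed. In the MALAT1 band ITGA11 (-0.012) and ITGA8 (-0.34) reversed against cluster 2. Cluster 6 holds most of the remaining cells, and the causes of the other reversals were not tested. Sums over many cells leave counting intervals narrow, but 1 library gives no spread between cultures, and small clusters limit clusters 7 and 9.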

Other observations

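Short genes were looked at apart, since the ratios followed gene span. MFSD4B, a membrane transporter gene of 11.8 kb, stood at 85.9 CPM in cluster 1 and 21.4 CPM in cluster 2 (4.02-fold), and was the gene farthest above others of its span class in that comparison. Cluster 9 was higher still at 93.5 CPM, and against the remaining cells the gene ranked 20. HTR1F, a serotonin receptor gene of 3.14 kb, stood at 89.1 against 32.6 CPM (2.73-fold), while cluster 6 stood at 147 CPM. NABP1, a single-strand DNA-binding protein, stood at 154 CPM against 77.6 in cluster 2 and 75.4 in the remaining cells. Of 6704 genes 54 (0.805%) lay at least 1 log2 unit above the median of their span class against cluster 2 and 64 (0.955%) below it. In the comparison with the remaining cells the counts were 41 (0.580%) and 285 (4.03%) of 7069.

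Some short genes with a high ratio against the remaining cells, picked after their values were seen, stood at like levels in clusters 1 and 2. Most of the remaining cells are cluster 6. The complement factor CFB stood at 40.1 CPM in cluster 1, 36.8 in cluster 2 and 16.4 CPM in the remaining cells, but at 33.0 CPM in cluster 9. The secreted RARRES2 stood at 47.7 CPM in cluster 1, 38.9 in cluster 2 and 22.2 CPM in the remaining cells, with cluster 9 higher at 76.2 CPM. IGFBP5, which binds insulin-like growth factors, stood at 6209 CPM in cluster 1 and 3254 CPM in the remaining cells, 1.91-fold higher, and was 1.07-fold lower than in cluster 2. BMP4 stood at 26.5, 27.9 and 13 CPM and the interferon-induced IFIT2 at 45.5, 44.3 and 22.2 CPM. Inflammatory fibroblast genes were higher for 7 of 15 and lower for PTGS2 against the remaining cells, with a median of 0.48 that became -0.07 without cluster 6. The chemokine CXCL6 stood at 18.4 CPM in cluster 1, 10.7 in cluster 2 and 5.37 CPM in the remaining cells. Interferon response genes had a median of 0.29 against the remaining cells, with 2 of 16 higher and 1 lower, and of -0.28 against cluster 2, with 1 of 15 higher. The cluster 1 cells of the TGFB1 library had 19 genes 2-fold higher and 17 lower than untreated cluster 1, of 6840.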
